A study of Mus musculus with 3 samples.

Results

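The 9 mouse genes *Ugcg*, *B4galt5*, *B4galt6*, *St3gal5*, *St8sia1*, *St8sia5*, *B4galnt1*, *B3galt4* and *St3gal2*, which encode the enzymes that build gangliosides, were examined among the 22698 Ensembl genes measured by RNA-seq in melan-a cells. They were chosen by their biochemical role, with earlier results of these data known, and all 9 were found in the files. The cells are an immortalized line of C57BL/6J melanocytes that derive from Ink4a-ARF-/- mice. They were untreated, and their medium held fetal bovine serum, a phorbol ester (12-O-tetradecanoylphorbol 13-acetate) and cholera toxin. A single group of 3 libraries, labelled 1, 3 and 4, was measured, so no comparison between conditions was possible, and a single immortalized line cannot stand for melanocytes in skin.

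Gangliosides are glycolipids of the cell surface that carry sialic acid. UGCG adds glucose to ceramide, and B4GALT5 or B4GALT6 adds galactose, which gives lactosylceramide. ST3GAL5 adds the first sialic acid and makes GM3, the root of the a-series and b-series. From GM3, ST8SIA1 adds a second sialic acid to make GD3, the root of the b-series, and B4GALNT1 opens the complex gangliosides by making GM2 from GM3 or GD2 from GD3. B3GALT4 then makes GM1 and GD1b, ST3GAL2 makes GD1a and GT1b, and ST8SIA5 adds further sialic acids in an alpha-2,8 linkage. Without ST3GAL5 the later enzymes can act on lactosylceramide itself, which gives the 0-series with GD1c. In the melanocyte lineage GM3 is known as a main ganglioside of normal melanocytes, while GD3 is known as an abundant antigen of human melanoma cells.

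Values are FPKM, read numbers divided by the length of the gene and scaled for the size of the library. This permits levels to be set side by side between genes, within limits. Such comparisons still depend on the length taken for a gene, and the ratio between libraries moved with GC content, as given below. Here 1 FPKM in every library served as a fixed level for speaking of a clear signal. It is a convention and not a test. Of the 9 genes, 7 reached 1 FPKM in all 3 libraries, against 44.1% of all genes measured (10011 of 22698). *St8sia5* stayed below this level in every library, and *St8sia1* was listed at 0 in every library, as were 31.4% of all genes. The median of the 9 mean levels was 9.59 FPKM, and the median over all genes was 0.277 FPKM. The 4 routes to GM3, GM2, GM1 and GD1a had every step at 1 FPKM or more, and none of the other 6 routes examined did.

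The start regions of *St3gal5* and *St8sia1* are shown because their products act one after the other on the same lipid and their levels lie far apart. Each sequence runs 5′ to 3′ from 250 bases before to 50 bases after a start site that RefSeq gives on GRCm38.p6. Capitals mark GCCNNNGGC, a motif of the TFAP2 factors that the study followed in these cells. *St3gal5* lies on the plus strand at chr6:72097358-72097657 and *St8sia1* on the minus strand at chr6:142964403-142964702.
St3gal5: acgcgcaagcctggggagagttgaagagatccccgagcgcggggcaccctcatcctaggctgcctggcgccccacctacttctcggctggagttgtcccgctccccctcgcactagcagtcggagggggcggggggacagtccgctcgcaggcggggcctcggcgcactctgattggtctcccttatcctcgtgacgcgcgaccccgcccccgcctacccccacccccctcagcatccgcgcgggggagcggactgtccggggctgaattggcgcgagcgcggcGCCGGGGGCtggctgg
St8sia1: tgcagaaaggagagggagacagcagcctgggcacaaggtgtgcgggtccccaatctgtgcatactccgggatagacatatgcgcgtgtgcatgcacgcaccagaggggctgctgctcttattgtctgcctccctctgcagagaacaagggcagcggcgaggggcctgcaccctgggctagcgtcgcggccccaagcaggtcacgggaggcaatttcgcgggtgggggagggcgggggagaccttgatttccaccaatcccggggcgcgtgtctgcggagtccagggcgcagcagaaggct
The *St3gal5* sequence held 33 CpG dinucleotides and 1 match to GCCNNNGGC. The *St8sia1* sequence held 19 CpG dinucleotides and no match. Over the 32851 promoters of the same length, the median was 7 CpG dinucleotides, so both lay above the middle of the range.

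Entries were also found for *Ugcg*, *B4galt5* and *B3galt4*. Any entry on chromosome 18, where *B4galt6* and *St8sia5* lie, was left out. No entry was found for *B4galnt1* or *St3gal2*. The counts below therefore cover 5 sequences and not all of the ganglioside genes. *Ugcg* held 53 CpG dinucleotides, more than 99.55% of all promoters, *B4galt5* held 31 and *B3galt4* held 20. GCCNNNGGC, which reads the same on both strands, occurred 1 time in *Ugcg* and 2 times in *B4galt5*, where the copies did not overlap, but not in *B3galt4*. In all, 3 of the 5 sequences held it, against 16.6% of all promoters, and the 3 were the sequences richest in CpG. CATGTG, the core of the M-box that MITF binds, was searched on both strands and was found in *B4galt5* alone among the 5, against 14.2% of all promoters. CACGTG was found in none of the 5, against 7.15% of all promoters. These matches describe the letters of these windows and do not show binding.

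The first enzyme of the pathway had the lowest level of the 3 steps that lead to GM3. *Ugcg*, the glucosylceramide synthase gene (chr4:59202129-59235705 on the plus strand of mm9), was measured at 7 FPKM in library 1, 5.18 in library 3 and 8.64 in library 4, with a mean of 6.94 ± 1.73 FPKM (SD, n = 3). Library 3 was the lowest and library 4 the highest. The gene ranked 6490 of 22698 by mean level.

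The lactosylceramide step was served by both of its genes. *B4galt5* (chr2:167123944-167174683, minus strand) was at 22.38, 21.26 and 19.81 FPKM in libraries 1, 3 and 4, a mean of 21.2 ± 1.29 FPKM (SD, n = 3). *B4galt6* (chr18:20843100-20904905, minus strand) was at 10.37, 9.25 and 9.16 FPKM, with a mean of 9.59 ± 0.674 FPKM (SD, n = 3). The values of both genes did not overlap, and *B4galt5* was 2.16-fold, 2.3-fold and 2.16-fold higher than *B4galt6* in libraries 1, 3 and 4.

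*St3gal5*, the GM3 synthase gene (chr6:72047607-72104564, plus strand), was at 28.09 FPKM in library 1, 26.57 in library 3 and 24.9 in library 4. Its mean of 26.5 ± 1.6 FPKM (SD, n = 3) placed it above 88.7% of all genes. In each library it was the highest of the genes that make GM3, and it exceeded *Ugcg* by 2.88-fold to 5.13-fold.

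The gene that opens the b-series gave no signal. *St8sia1*, the GD3 synthase gene (chr6:142770065-142912972, minus strand), was listed at 0 FPKM in library 1, in library 3 and in library 4. With values rounded to 2 decimals, a listed 0 stands for less than 0.005 FPKM, which on the 9204 exon bases of this gene came to fewer than 2.48, 2.16 and 3.06 reads. A level worth 3 reads would have been 0.00606, 0.00693 and 0.00491 FPKM, so in libraries 1 and 3 the rounding bound lay below 3 reads. A level under these rounding bounds cannot be told from 0 here. Of 32 core genes of the proteasome and RNA polymerase II, looked up after the values were seen, none was at 0 in any library and the lowest value was 1.86 FPKM. Zeros beside a clear signal do occur: further identifiers of *Psmd14* and *Ndufb8* were at 0 in every library. The identifiers that overlap them on the same strand were at 22.08 to 27.89 and 18.2 to 23.42 FPKM. Whether reads of *St8sia1* were lost in the counting was not tested. No other gene overlapped the exons of *St8sia1* on its own strand, and a transcript on the opposite strand covered 1.62% of them.

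*St8sia5*, which acts late and adds alpha-2,8-linked sialic acid to several gangliosides (chr18:77424586-77494189, plus strand), was low but present. Its values were 0.3, 0.34 and 0.34 FPKM in libraries 1, 3 and 4, a mean of 0.327 ± 0.0231 FPKM (SD, n = 3). This corresponded to about 34, 34 and 47 reads, a counting error of about 17.3% in the libraries with the fewest. It ranked 11213 of 22698, and *St3gal5* exceeded it by 73.2-fold to 93.6-fold within the same library. The opposite-strand gene *Gm7276* shares 18.0% of the exon bases of *St8sia5* and was at 0.03, 0 and 0 FPKM. Since the strand setting of the counting is not given, the effect of this overlap on *St8sia5* is uncertain.

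The genes of the complex a-series were all measured. *B4galnt1*, the GM2/GD2 synthase gene (chr10:126602247-126609385, plus strand), was at 16.74 FPKM in library 1, 20.58 in library 3 and 12.78 in library 4, with a mean of 16.7 ± 3.90 FPKM (SD, n = 3). Library 3 was the highest and library 4 the lowest, the reverse of *Ugcg*. The opposite-strand gene *Slc26a10* shares 29.4% of the exon bases of *B4galnt1* and was at 0.33, 0.38 and 0.44 FPKM. The strand setting of the counting is not given, so the effect of the shared stretch on the level of *B4galnt1* is uncertain.

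*B3galt4*, the GM1 synthase gene (chr17:34086859-34088433, minus strand), was the lowest of the measured genes on the way to GD1a. It was at 2.78, 3.53 and 2.58 FPKM in libraries 1, 3 and 4, a mean of 2.96 ± 0.501 FPKM (SD, n = 3), from about 236, 261 and 270 reads. *B4galnt1*, which acts just before it, was 4.95-fold to 6.02-fold higher in the same library. *St3gal2*, which acts just after it (chr8:113443822-113496380, plus strand), was at 35.34, 38.1 and 27.84 FPKM, a mean of 33.8 ± 5.31 FPKM (SD, n = 3), and exceeded *B3galt4* by 10.8-fold to 12.7-fold. *St3gal2* was the highest of the 9 genes in every library.

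**Figure D1:**
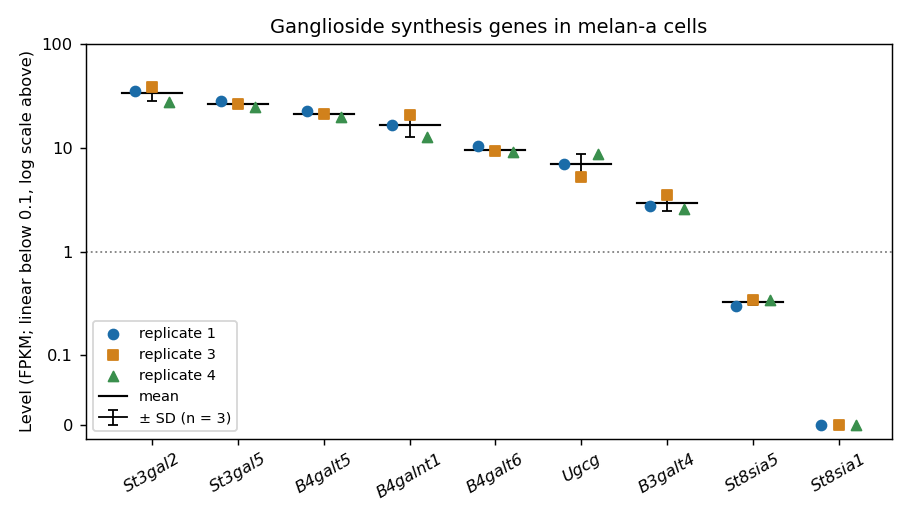
FPKM of each gene (vertical axis, linear below 0.1 and logarithmic above) in libraries 1, 3 and 4, with the mean and SD of 3 libraries as black lines and the 1 FPKM level dotted. 7 genes lie between 2.58 and 38.1 FPKM, *St8sia5* lies at 0.3 to 0.34 FPKM and *St8sia1* is listed at 0 in all 3 libraries, without a mean.

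By mean level the order was *St3gal2*, *St3gal5*, *B4galt5*, *B4galnt1*, *B4galt6*, *Ugcg*, *B3galt4*, *St8sia5* and *St8sia1*, and each of the 8 neighbouring pairs kept this order in 3 of 3 libraries. Differences were taken within each library as log2(FPKM + 0.1). The ranges of *St3gal2* and *St3gal5* overlapped, with a mean difference of 0.34 ± 0.18 on the log2 scale (SD, n = 3 libraries). The ranges of *B4galt5* and *B4galnt1* also overlapped, with a mean difference of 0.36 ± 0.29, and in library 3 the ratio was 1.03. The overlap is between values of different libraries, and within each library the first gene of both pairs was the higher. The other 6 pairs did not overlap. Of these, *B4galt6* over *Ugcg* had a mean difference of 0.49 ± 0.38 and came to 0.32 without library 3. This pair depended on the length used, since with the longest transcript in place of the joined exons, an alternative added after the data were seen, the difference was 0.12. *B4galt6* was then higher in 2 of 3 libraries, with *Ugcg* at 11.22 and *B4galt6* at 9.16 FPKM in library 4, and the ranges overlapped. The difference between *B4galt5* and *B4galnt1* came to 0.23 without library 4. *B3galt4* stood 2.83 ± 0.22 above *St8sia5* on this scale, the widest of the 7 steps that could be computed. Because *St8sia5* is low, this value depended on the pseudocount, at 1.57 with a pseudocount of 1 and 3.13 with 0.01. A two-sided exact sign-flip permutation test over 3 libraries cannot give a p below 0.25, and every pair had p = 0.25, also after Benjamini-Hochberg adjustment over the 8 pairs. With 3 libraries in the same order the test gives this p whatever the spread, so it does not measure the spread. The series' design calls the libraries biological replicates without saying how the cultures were separated, so the order is stated for these libraries only.

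Taking the levels along each route shows which products had a transcript for every step. For GM3 and GM2 the lowest step was *Ugcg*, with a mean of 6.94 FPKM, and the highest step was *St3gal5*. For GM1 and GD1a the lowest step was *B3galt4*, with a mean of 2.96 FPKM, and the highest step of the GD1a route exceeded it by 10.8-fold to 12.7-fold within a library. All 5 routes that need *St8sia1*, to GD3, GT3, GD2, GD1b and GT1b, had a step listed at 0. The 0-series route to GD1c, which avoids *St3gal5* and *St8sia1* but needs *St8sia5*, had its lowest step at 0.327 FPKM. The level of an RNA is not the activity of an enzyme, and gangliosides themselves were not measured. In cells measured in bulk, fewer cells with a transcript and less of it per cell cannot be told apart.

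**Figure D2:**
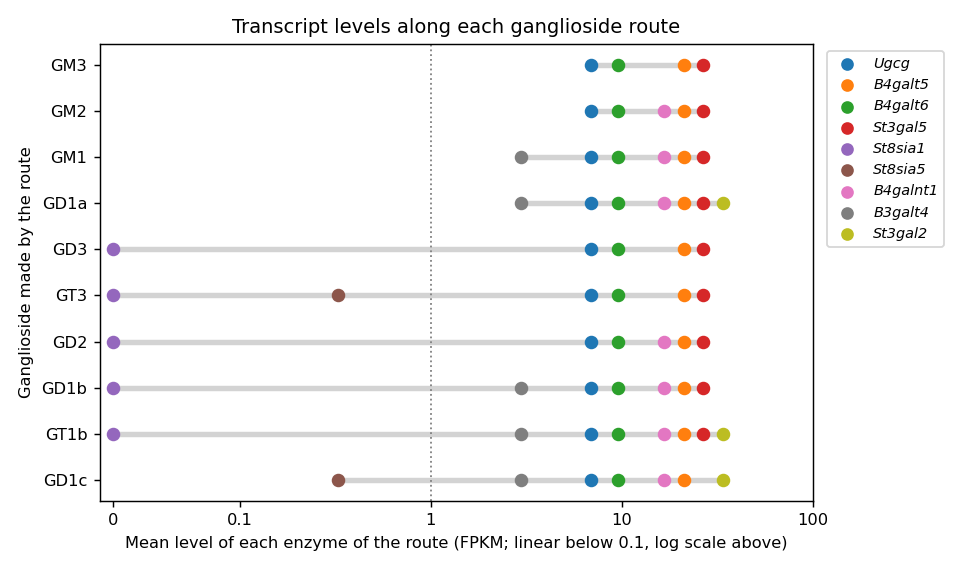
Mean FPKM over 3 libraries (horizontal axis, linear below 0.1 and logarithmic above) of every enzyme gene on the route to each of 10 gangliosides, 1 route per row, with the 1 FPKM level dotted. The upper 4 rows (GM3, GM2, GM1 and GD1a) lie wholly at 2.96 FPKM or more, 5 rows reach to 0 at *St8sia1*, and the GD1c row reaches to 0.327 FPKM at *St8sia5*.

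Each ganglioside gene except *Ugcg* was then set beside the paralogs of its family, which include enzymes that act on other lipids or on proteins. The sialyltransferase families differed in level as whole families. All 6 alpha-2,3-sialyltransferases (*St3gal1* to *St3gal6*) were at 1 FPKM or more in every library, with single values from 16.58 to 38.1 FPKM. None of the 6 alpha-2,8-sialyltransferases (*St8sia1* to *St8sia6*) was. Over all genes the share at this level was 44.1%. Summed over the family, the alpha-2,3 genes came to 155 to 178 FPKM in a library and the alpha-2,8 genes to 0.3 to 0.35 FPKM. The families were in this order in 3 of 3 libraries, for which the same exact test again cannot give less than p = 0.25. Apart from *St8sia5*, the only alpha-2,8 value above 0 was 0.01 FPKM for *St8sia2*, a polysialyltransferase gene, in library 3. *St8sia3*, *St8sia4* and *St8sia6* were listed at 0 in all 3 libraries, as were 31.4% of all genes.

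Within the alpha-2,3 family *St3gal2* was not alone at the top. *St3gal4* had a mean of 34.9 ± 1.95 FPKM (SD, n = 3) against 33.8 ± 5.31 for *St3gal2*, and their ranges overlapped. *St3gal1*, whose enzyme can also act on GM1, had a mean of 23.3 ± 1.77 FPKM (SD, n = 3), and *St3gal2* was 1.31-fold to 1.55-fold higher in the same library. *St3gal6* and *St3gal3* had means of 28.0 and 22.1 FPKM. The opposite-strand gene *Dcbld2* shares 26.4% of the exon bases of *St3gal6*, whose level is uncertain because the strand setting is not given.

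Among the beta-1,4-galactosyltransferases all 7 genes were at 1 FPKM or more in every library, against 44.1% of all genes. *B4galt5* at 21.2 FPKM lay beside *B4galt2* at 22.3 and *B4galt1* at 21.5 FPKM, and *B4galt6* lay below *B4galt7*, at 10.6 FPKM, without overlap. *B4galt3* had a mean of 16.2 FPKM and *B4galt4* the lowest mean of the family, 3.06 FPKM. The ranges of *B4galt5* and *B4galt1* overlapped, as did those of *B4galt5* and *B4galt2*. The level of *B4galt2* is uncertain, since *Ccdc24* shares 28.2% of its exon bases on the same strand.

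*B4galnt1* was the highest of its family of 4, of which 2 reached 1 FPKM in every library, against 44.1% of all genes. *B4galnt3* had a mean of 2.74 FPKM, *B4galnt2* had 0.01 FPKM in library 1, 0.02 in library 3 and 0 in library 4, and *B4galnt4* was listed at 0 throughout. *B3galt4*, in contrast, was not the highest of its family. *B3galt5* was higher, with 4.73, 5.09 and 5.08 FPKM, and did not overlap *B3galt4*. *B3galt6*, which acts in the linker of proteoglycans, was at 2.52, 2.93 and 2.18 FPKM and overlapped it. *B3galt1* had a mean of 0.08 FPKM, and *B3galt2* was at 0.02, 0 and 0.03 FPKM.

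**Figure D3:**
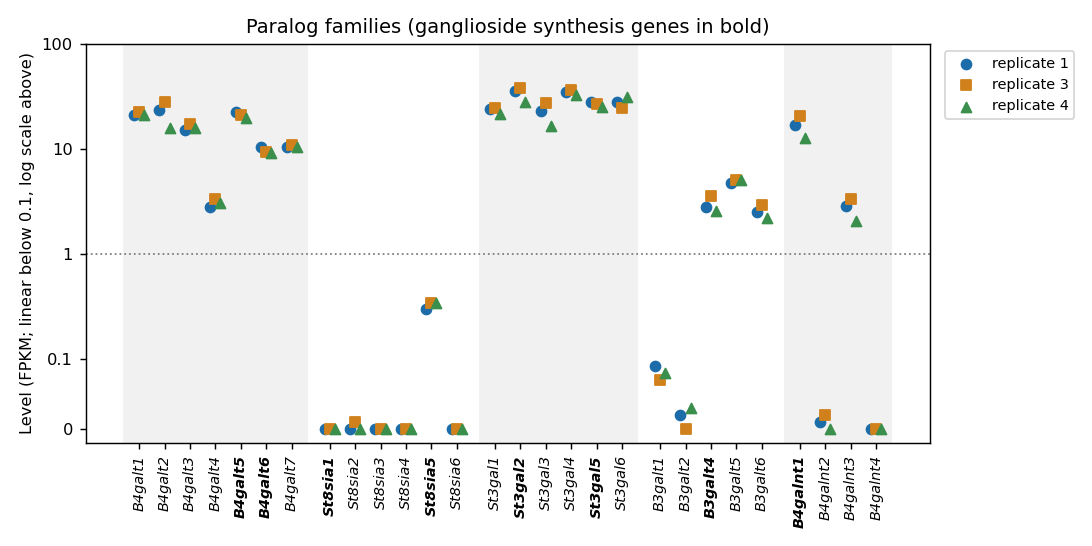
FPKM (vertical axis, linear below 0.1 and logarithmic above) in libraries 1, 3 and 4 of the 28 genes in 5 glycosyltransferase families, separated by shading, with the ganglioside synthesis genes in bold and the 1 FPKM level dotted. The alpha-2,3-sialyltransferases lie between 16.58 and 38.1 FPKM, while the alpha-2,8-sialyltransferases lie at 0 to 0.34 FPKM.

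Genes that feed the pathway were for the most part above 1 FPKM. Of 12 genes of ceramide supply, 8 reached 1 FPKM in every library, against 44.1% of all genes, and the median of the list was 15.5 FPKM. The highest were *Degs1*, the dihydroceramide desaturase gene, at 240 ± 5.76 FPKM (SD, n = 3), and the ceramide synthase genes *Cers2* and *Cers6* at 138 and 21.0 FPKM. The lowest were *Degs2* and *Sptlc3*, both listed at 0 in every library, and *Cers3* at 0.03, 0.01 and 0 FPKM. Paralogs of these low genes, *Degs1*, *Sptlc2* at 19.1 FPKM, which was looked up after the values were seen, and *Cers2*, had a clear signal.

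Of 8 genes that supply nucleotide sugars, 7 reached 1 FPKM in every library, against 44.1% of all genes, and the median of the list was 13.6 FPKM. *Ugp2*, which makes UDP-glucose, had a mean of 110 FPKM. *Nans* and *Cmas*, which form and activate sialic acid, had means of 51.0 and 18.2 FPKM. The opposite-strand gene *Trim14* shares 29.6% of the exon bases of *Nans*, whose level is uncertain because the strand setting is not given. *Slc35a2* and *Slc35a1*, the Golgi carriers of UDP-galactose and CMP-sialic acid, were at 12.3 and 6.13 FPKM. The exception was *Nanp*, the phosphatase between *Nans* and *Cmas*, at 0.04 FPKM in library 1, 0.02 in library 3 and 0.1 in library 4. *Ninl*, on the same strand, shares 9.81% of the exon bases of *Nanp*, and whether this shared stretch bears on its low value was not tested.

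Of 16 other enzymes at branch points of sphingolipid and ganglioside synthesis, 7 reached 1 FPKM in every library. This is about the share over all genes, 44.1%, and the median of the list was 0.675 FPKM. The highest were *St3gal1*, *St6galnac6* and *St3gal3* at 23.3, 22.3 and 22.1 FPKM. The lowest, listed at 0 in every library, were *St6galnac5* and *St8sia3*, sialyltransferase genes, and *Ugt8a*, which makes galactosylceramide. Named after their values were seen, the genes that would turn lactosylceramide or its products to other glycolipid series were also close to 0. *A4galt*, which starts the globo-series, and *B3gnt5*, which starts the lacto-series, were at 0 in libraries 1 and 3 and at 0.01 FPKM in library 4. *B3galnt1*, which acts in the globo-series, was at 0.02, 0 and 0 FPKM. *Sgms1*, which diverts ceramide to sphingomyelin and was also picked after its values were seen, was in contrast at 7.41, 7.51 and 8.5 FPKM, with a range that overlapped that of *Ugcg*.

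All 4 genes of glycolipid and ceramide transfer reached 1 FPKM in every library, against 44.1% of all genes, and the median of the list was 11.1 FPKM. *Gltp*, the glycolipid transfer protein gene, led with 81.3 ± 10.8 FPKM (SD, n = 3), followed by *Cptp* at 17.7 FPKM. *Col4a3bp*, the ceramide carrier, and *Plekha8*, which carries glucosylceramide, were at 4.61 and 3.25 FPKM. Genes of ganglioside breakdown held the highest levels of all the lists around the pathway. Of 14 such genes, 11 reached 1 FPKM in every library, against 44.1% of all genes, and the median of the list was 19.1 FPKM. *Psap*, which encodes the saposins, was at 414 ± 4.41 FPKM (SD, n = 3), *Hexa*, a hexosaminidase subunit that acts on GM2, at 310 ± 42.4 FPKM and *Asah1*, the acid ceramidase gene, at 126 ± 16.4 FPKM. The lowest were the sialidase genes *Neu4*, listed at 0 throughout, *Neu2*, at 0.01 FPKM in library 4 alone, and *Neu3* at 0.54, 0.5 and 0.51 FPKM.

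**Figure D4:**
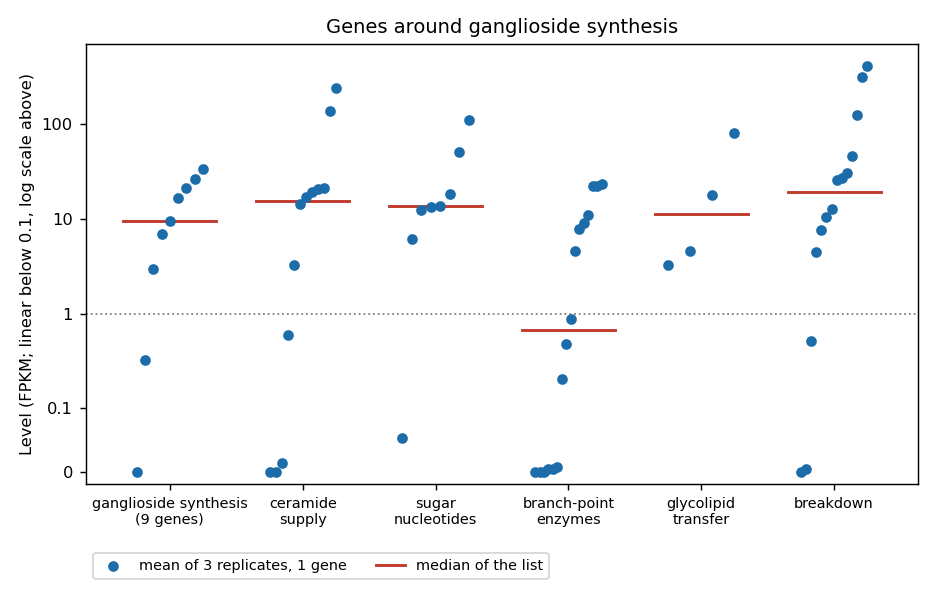
Mean FPKM over 3 libraries (vertical axis, linear below 0.1 and logarithmic above) of the ganglioside synthesis genes and of 5 lists around them, 1 point per gene, with the median of each list in red and the 1 FPKM level dotted. The medians are 9.59, 15.5, 13.6, 0.675, 11.1 and 19.1 FPKM from left to right.

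The spread between libraries was uneven among the 7 genes at 1 FPKM or more. *St3gal5*, *B4galt5* and *B4galt6* varied little, with coefficients of variation of 6.02%, 6.09% and 7.03%. *St3gal2* and *B3galt4* were at 15.7% and 16.9%, and *B4galnt1* and *Ugcg* at 23.4% and 24.9%. The median over all 10011 genes at this level was 11.4%, and the values of *Ugcg* and *B4galnt1* were above those of 90% and 87.5% of them. Counting error was far smaller, at 2.81% for *Ugcg* and 2.20% for *B4galnt1* in the library with the fewest estimated reads.

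Over all genes the ratio between libraries moved with the GC content of the exons, and the ganglioside genes followed it unevenly. Over 10007 genes, which share the same libraries and are no independent replicates of each other, the log2 ratio of library 3 over library 4 had a Spearman's rho of 0.779 with exon GC content. *Ugcg*, with 43.5% GC, had a log2 ratio of -0.74. *B4galnt1*, with 60.4% GC, and *B3galt4*, with 58.9% GC, had ratios of 0.69 and 0.45. *St3gal5* and *B4galt5*, with 53.3% and 54.0% GC, were at 0.09 and 0.10. *St3gal2*, with 54.8% GC, was at 0.45, like *B3galt4* and apart from *B4galt5* at nearly the same GC content. *B4galt6*, with 46.2% GC, was at 0.01. When the median deviation of each library was removed in 20 bins of GC content, an alternative added after the data were seen, the coefficient of variation of *B4galnt1* came to 3.91%, of *St3gal2* to 6.35%, of *B3galt4* to 6.64% and of *Ugcg* to 13.0%. That of *B4galt6* went the other way, to 10.8%, and those of *St3gal5* and *B4galt5* came to 6.38% and 7.05%. The median over all genes also fell, from 11.4% over 10011 genes to 7.31% over the 10007 with a GC value. *Ugcg* stayed above this median, and *B4galt6*, which was below the median before the adjustment, was then above it. Before the adjustment, the ratio of *B4galnt1* to *Ugcg* was 2.39 in library 1, 3.97 in library 3 and 1.48 in library 4. In these unadjusted values, the distance between these 2 genes depended on the library more than that between *B4galt5* and *B4galt6*. After the adjustment, the log2 ratios of library 3 over library 4 were 0.09 for *B4galnt1* and -0.38 for *Ugcg*. They were -0.16 for *B4galt5* and 0.25 for *B4galt6*, so the contrast between the pairs is stated for unadjusted values only.

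**Figure D5:**
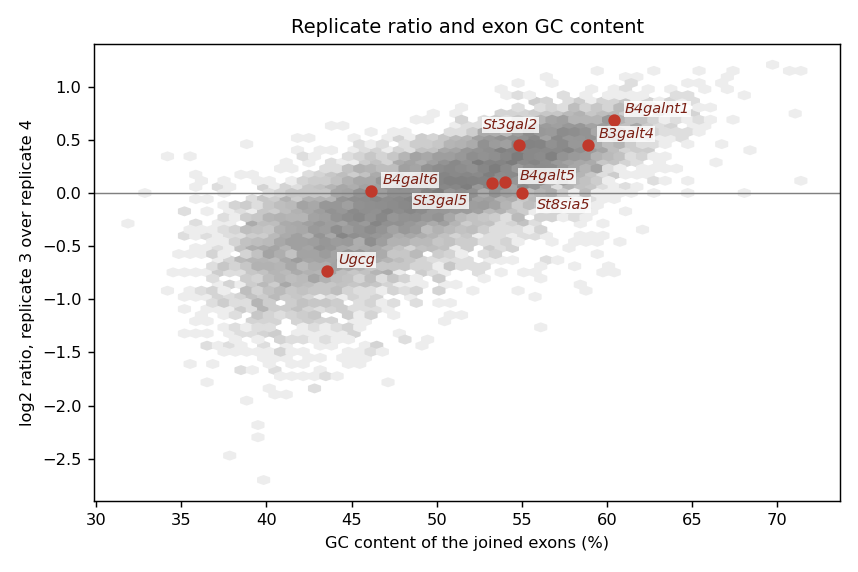
Log2 ratio of library 3 over library 4 (vertical axis) against the GC content of the joined exons in percent (horizontal axis) for 10007 genes at 1 FPKM or more in every library, as grey bins that darken with the number of genes on a log scale, and for 8 of the ganglioside genes in red. *Ugcg* lies at -0.74 and 43.5% GC, *B4galnt1* at 0.69 and 60.4% GC.

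The libraries held the transcripts of melanocytes. All 10 melanocyte markers, among them *Tyrp1*, *Dct*, *Pmel* and *Mlana*, were at 1 FPKM or more in every library, and their sum was 5828 to 6667 FPKM. The 6 keratinocyte markers summed to 0.36 to 0.7 FPKM, with *Krt1*, *Trp63* and *Dsg3* at 0. The 6 fibroblast markers summed to 1.61 to 1.95 FPKM, of which *Col1a1* alone reached 1 FPKM in every library. The 6 neuron markers summed to 0.2 to 0.24 FPKM, with *Snap25* and *Syt1* at 0, the 6 immune markers to 0.76 to 1.6 FPKM, all from *Cd68*, and the 4 endothelial markers to 0.01 to 0.03 FPKM. From the whole-read steps of low values, library sizes after scaling were about 53800000, 47000000 and 66400000 reads for libraries 1, 3 and 4, and 3 reads on 1 kb came to 0.0558, 0.0638 and 0.0452 FPKM.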

How the data were processed

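RNA was sequenced from untreated melan-a cells in 3 libraries, which form 1 group. The deposited files hold 1 FPKM value per gene and library, to 2 decimals, which the authors had normalized by TMM. In the study's methods, stranded mRNA libraries were trimmed by 10 bases, aligned to mm9 with STAR (2.3.0e), cleared of rRNA reads and counted with HTSeq (0.5.3p3) on Ensembl release 67. The strand setting of the counting and the step from counts to FPKM are not given in the sources used here. Because FPKM are not counts, no count model was applied.

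Symbols, exon lengths, GC content and overlaps came from GENCODE M1 (Ensembl release 65, NCBIM37, the build of mm9), which held 22324 of the 22698 genes, and older symbols were matched through RefSeq synonyms. Where 2 identifiers shared a symbol, the lower identifier was used. Promoters came from RefSeq on GRCm38.p6, and no coordinates were carried between builds. Promoter entries of the ganglioside genes on chromosome 18 were not used. Library sizes were estimated from 81, 132 and 44 single-transcript genes of at least 150 exon bases, as the size at which low values fell nearest to whole reads (mean distance 0.0502, 0.0515 and 0.0594 reads). Reads per gene are estimates from these sizes, and the bounds cover counting error only. Depth and rounding limit statements on *St8sia1* and *St8sia5*.

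Neighbours in level were compared within libraries by an exact sign-flip permutation test on log2(FPKM + 0.1). The scripts were tested on simulated data. Text names the 9 genes, their paralogs, and of each list around the pathway the 3 highest and 3 lowest by mean. The genes and lists were chosen with earlier results of these data known. Alternatives were each library left out, equal sums of FPKM, the median, other pseudocounts and levels, ranking among genes above 0, the sum of *B4galt5* and *B4galt6* and, added after the data were seen, the longest transcript as length and a GC adjustment. Scripts ran on Python 3.11.15 with scipy 1.17.1, matplotlib 3.10.9, pandas 2.3.3, statsmodels 0.14.6 and numpy 2.4.6.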

Additional observations from a re-analysis of the deposited data

How the results depend on the processing

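Over 200 recalculations of the levels, ranks, order, routes, counts and spreads, 194 stayed within the spread between libraries or kept their direction, none reversed in its mean and 6 moved. Many of the 194 could not have come out otherwise, so their number is no measure of stability. Leaving out 1 library or taking the median cannot move a mean of 3 values by more than its SD. A pair in the same order in all 3 libraries keeps it under any pseudocount, and a gene listed at 0 stays at 0. The mean level of *Ugcg* came to 9.02 FPKM when its longest transcript replaced the joined exons as length, and its distance below *B4galt6* then shrank from 0.49 to 0.12 on the log2 scale, with the order kept in 2 of 3 libraries. The distance of *B3galt4* above *St8sia5* was 1.57 with a pseudocount of 1. The other 5 that moved were coefficients of variation after the GC adjustment. The gene with the lowest level was the same in 60 of 60 recalculated routes, and 7 of 9 genes passed at 0.5 and at 2 FPKM. Neither count could have come out otherwise. The lowest gene of each route was the lowest in every library. The 7 genes were at 2.58 FPKM or more in every library and the other 2 at 0.34 FPKM or less. The longest transcript and the GC adjustment were not applied to the routes. No mean difference changed its direction when any library was left out, which the shared order in all 3 libraries had already fixed. P-values over 3 libraries cannot pass a threshold and say nothing of stability. No paired analysis was possible because the samples form a single group. Rounding to 2 decimals limits *St8sia1*, for which fewer than 2.16 to 3.06 reads per library cannot be told from 0.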
